A study of Mus musculus and Mus musculus
Rattus norvegicus with 30 samples.

Results

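The regions described here were the ATAC-seq peaks that lost accessibility when mouse Cdx2 was induced in mouse embryonic stem cells (mESCs). ATAC-seq measures open chromatin by the insertion of a transposase, and the reads of each peak were given for 1 library of WT cells and 1 library of cells induced to overexpress mouse Cdx2 (mCdx2-OE, labelled mCDX2 OE). The members were chosen by these read counts. A peak was called closed when, after both libraries had been scaled to their mean total and 1 had been added, its log2 ratio of mCdx2-OE to WT reads was below -1 and its scaled reads summed to at least 40. Of 122350 peaks, 119304 lay on chromosomes 1 to 19, 83368 of these reached the read minimum, and 17398 (20.9%) were closed. The same thresholds in the other direction gave 10678 opened peaks (12.8%), and the remaining 55292 are called other peaks.

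The study compared how the mouse and the rat Cdx2 protein act in embryonic stem cells. Doxycycline-inducible Tet-On lentiviruses carried Flag-tagged mouse Cdx2 (mCdx2), rat Cdx2 (rCdx2) or 1 of 7 rCdx2 constructs with amino acid changes numbered 1, 2 and 3, alone or combined (R1, R2, R3, R12, R13, R23 and R123, labelled from rCDX2_R1 OE to rCDX2_R123 OE). All cells were grown in 2i/LIF medium, which holds PD0325901, Chir99021 and LIF, and the controls of each cell type were labelled WT, with no word on whether these were parental cells or uninduced transgenic lines, so induction and a difference between lines cannot be told apart. RNA-seq covered 10 mESC conditions with 2 libraries each (WT, mCdx2-OE, rCdx2-OE and the 7 mutants), and Cdx2 ChIP-seq covered mCdx2-OE and rCdx2-OE. RNA-seq and ChIP-seq were also made in RMES cells, fusion cells that carry a haploid mouse genome beside a haploid rat genome, of which only the mm10 tables are used here. Every induced line relied on such a transgene, and the labels did not say whether libraries of a condition came from separate cultures, so p-values measure only the spread between these libraries.

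Enhancers of naive pluripotent cells are held open by transcription factors such as Oct4, Sox2, Klf factors and Esrrb, and they lose accessibility when the factors leave or the cells change fate. Cdx2 is a caudal-type homeodomain factor that specifies the trophectoderm, the outer layer of the blastocyst, where it opposes the pluripotency program. Such enhancers are usually distal to promoters and often lie in groups around the genes of the state they serve.

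The letters under several closed peaks are given first, because the motif counts and the pluripotency genes described further on refer to them. Each is the 300-base window at the centre of a closed peak, read 5′ to 3′ on the + strand of GRCm38/mm10, with capitals for matches on either strand to 9 motifs (octamer, Sox, Klf, Esrrb, Cdx, Ctcf, AP-1, Tead and Gata), whose letters are spelled out with their counts and none of which contains another. A match is a description of letters and not a bound site. The first 3 windows held a motif and belong to the closed peaks with the most WT reads near Klf2, Socs3 and Jam2, genes named by the rule described with the pluripotency genes.

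The Klf2 window, chr8:72334269-72334568, lay in intergenic sequence 15.4 kb beyond the start of Klf2, a Krüppel-like factor of the naive state, and its peak held 391 WT and 250 mCdx2-OE reads. Its capitals mark a Cdx motif. The Socs3 window, chr11:117975478-117975777, lay 5.58 kb upstream of Socs3, a feedback inhibitor of LIF signalling, in a peak with 416 and 231 reads, and holds a Tead motif. The Jam2 window, chr16:84779491-84779790, lay in an intron of Jam2, a junctional adhesion molecule, 5.52 kb from its start, in a peak with 587 and 397 reads, and holds a Klf motif. The log2 ratios were -1.08 for the Klf2, -1.28 for the Socs3 and -1.0 for the Jam2 peak, so the Klf2 and Jam2 peaks lay close to the limit of -1.
Klf2: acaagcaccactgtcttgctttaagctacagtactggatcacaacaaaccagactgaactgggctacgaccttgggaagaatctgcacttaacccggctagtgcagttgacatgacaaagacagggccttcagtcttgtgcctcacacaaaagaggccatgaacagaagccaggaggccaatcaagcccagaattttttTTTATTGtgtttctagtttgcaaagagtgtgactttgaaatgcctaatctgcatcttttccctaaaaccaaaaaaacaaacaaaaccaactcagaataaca
Socs3: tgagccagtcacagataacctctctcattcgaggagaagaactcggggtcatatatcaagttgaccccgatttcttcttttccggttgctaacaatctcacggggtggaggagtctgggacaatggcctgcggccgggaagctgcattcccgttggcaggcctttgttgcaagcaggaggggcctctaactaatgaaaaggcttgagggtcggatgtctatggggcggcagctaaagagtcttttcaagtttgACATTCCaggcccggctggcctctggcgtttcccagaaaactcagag
Jam2: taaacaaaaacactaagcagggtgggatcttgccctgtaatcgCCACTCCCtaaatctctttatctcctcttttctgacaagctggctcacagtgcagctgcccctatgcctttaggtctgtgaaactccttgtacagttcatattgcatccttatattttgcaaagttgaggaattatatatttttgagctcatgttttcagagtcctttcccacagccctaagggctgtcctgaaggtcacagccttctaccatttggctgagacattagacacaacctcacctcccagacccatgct

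The next 5 windows were chosen after the values were seen, as all windows with an octamer or Esrrb motif among the 87 closed peaks of the named pluripotency genes. The Klf5 window, chr14:99457741-99458040, was the 1 window with an octamer, held a Sox motif as well, lay 159 kb from the start of Klf5, and its peak had 77 WT and 16 mCdx2-OE reads (log2 ratio -2.62). The Lifr window, chr15:7167850-7168149, lay in an intron of the LIF receptor gene 77.4 kb from its start, held an Esrrb motif, and its peak had 42 WT and 8 mCdx2-OE reads (-2.67). The Esrrb window, chr12:86386060-86386359, in an intron of Esrrb 25.1 kb from the start, held a Klf and an Esrrb motif in a peak with 33 and 11 reads. The Fgf4 window, chr7:144851317-144851616, in an Fgf4 intron 4.1 kb from the start, held an Esrrb motif in a peak with 128 and 72 reads. A second Klf2 window, chr8:72348976-72349275, lay 30.1 kb from Klf2 in an intron of Eps15l1 and held an Esrrb and a Cdx motif in a peak with 67 and 29 reads.
Klf5: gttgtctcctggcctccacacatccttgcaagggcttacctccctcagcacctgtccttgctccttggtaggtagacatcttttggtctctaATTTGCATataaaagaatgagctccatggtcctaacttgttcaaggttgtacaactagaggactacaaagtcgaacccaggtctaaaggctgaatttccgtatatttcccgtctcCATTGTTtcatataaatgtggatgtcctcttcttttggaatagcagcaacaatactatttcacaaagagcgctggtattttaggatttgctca
Lifr: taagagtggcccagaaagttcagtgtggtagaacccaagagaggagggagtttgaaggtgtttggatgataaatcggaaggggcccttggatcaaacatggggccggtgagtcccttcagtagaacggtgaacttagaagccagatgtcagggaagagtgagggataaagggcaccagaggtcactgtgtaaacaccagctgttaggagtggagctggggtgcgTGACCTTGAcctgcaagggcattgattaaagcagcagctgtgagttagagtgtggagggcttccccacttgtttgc
Esrrb: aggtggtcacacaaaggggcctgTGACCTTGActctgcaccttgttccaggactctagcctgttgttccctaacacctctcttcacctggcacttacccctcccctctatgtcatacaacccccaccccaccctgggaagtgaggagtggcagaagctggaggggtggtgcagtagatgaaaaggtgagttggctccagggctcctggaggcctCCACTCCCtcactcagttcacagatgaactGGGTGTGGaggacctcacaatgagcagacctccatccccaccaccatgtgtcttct
Fgf4: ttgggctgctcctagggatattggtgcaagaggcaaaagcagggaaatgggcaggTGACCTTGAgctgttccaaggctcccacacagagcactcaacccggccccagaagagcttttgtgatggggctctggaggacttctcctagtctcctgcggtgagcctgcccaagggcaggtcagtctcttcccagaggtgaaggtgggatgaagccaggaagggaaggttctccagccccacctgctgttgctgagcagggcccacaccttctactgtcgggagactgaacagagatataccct
Klf2, Eps15l1 intron: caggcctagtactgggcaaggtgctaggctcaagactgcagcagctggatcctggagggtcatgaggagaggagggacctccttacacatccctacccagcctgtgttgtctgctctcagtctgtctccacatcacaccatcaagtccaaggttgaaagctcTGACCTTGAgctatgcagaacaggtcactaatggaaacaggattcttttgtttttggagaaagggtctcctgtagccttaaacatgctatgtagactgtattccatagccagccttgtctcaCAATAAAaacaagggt

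The size of the loss, which the rule used, is given as a description with no test, since each condition had 1 library. The libraries held 6109353 (WT) and 8277850 (mCdx2-OE) reads in peaks. A closed peak had a median of 47 WT reads and 20 mCdx2-OE reads, or 55.3 and 17.4 after scaling. The quartiles were 34 and 77 reads in WT and 14 and 34 in mCdx2-OE. The median log2 ratio of closed peaks was -1.52, against -0.15 over all 83368 peaks. Most losses were partial. Between ratios of -1.5 and -1 lay 8436 closed peaks (48.5%), while 4122 (23.7%) were below -2, 690 (3.97%) below -3 and 73 below -4. Only 6 closed peaks had no mCdx2-OE read, and 152 had 3 or fewer.

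The peaks nearest the limits had ratios of -1.00025 inside and -0.99972 outside, and scaled totals of 40.12 inside and 39.98 outside. A further 8359 autosomal peaks had a ratio below -1 but too few reads, and 111 peaks on X and Y met both limits and were left out by the rule. The 95% counting interval of the ratio, which covers counting error only, as do all Wilson intervals of shares here, lay wholly below -1 for 6916 closed peaks (39.8%), a description of counting precision in the reads that chose them. The balance of closed and opened peaks depended on the scaling. Closed peaks made up 62.0% of the changed peaks here, 52.8% with edgeR's TMM factors (14197 closed and 12684 opened), 51.4% with DESeq2's median-of-ratios factors (13851 and 13077) and 31% with unscaled reads (8823 and 19657).

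**Figure D1:**
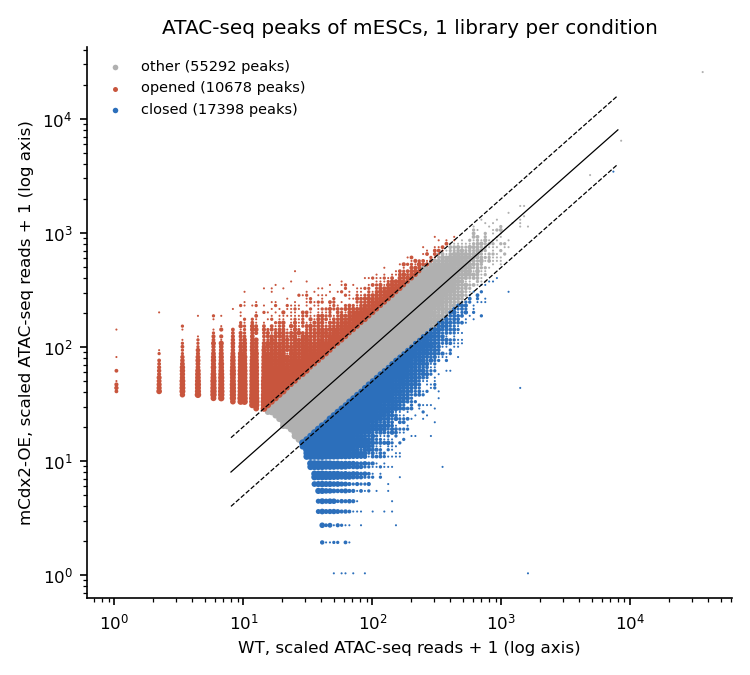
Scaled mCdx2-OE reads (vertical, log scale) against scaled WT reads (horizontal, log scale) of the 83368 ATAC-seq peaks with a scaled total of at least 40, with 1 added to each. Dots are bins of peaks, larger for more peaks, coloured by class, the solid line marks equal reads and the dashed lines a 2-fold difference. The closed peaks form the band below the lower dashed line, and their median lies at 55.3 scaled WT and 17.4 scaled mCdx2-OE reads.

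Loss of accessibility was spread over the genome with 2 exceptions. On chromosome 3, 492 of 4784 peaks were closed (10.3%) and 27.3% were opened, and on chromosome 16, 440 of 3730 were closed (11.8%) and 22.7% opened. The other 17 autosomes ranged from 18.8% to 24.5% closed and from 8.06% to 14.2% opened. The median log2 ratio of all peaks was 0.39 on chromosome 3 and 0.22 on chromosome 16, against -0.29 to -0.11 elsewhere. RNA moved the same way in the mCdx2-OE libraries, where the median log2 fold change was 0.32 for chromosome 3 genes, 0.12 for chromosome 16 genes and -0.07 for the other autosomes. Against the same WT libraries, these medians were 0.29, 0.11 and -0.08 in rCdx2-OE and 0.16, 0.18 and -0.07 in R1. The part of this shift in the results was not tested. With each chromosome centred on the common median, 17255 peaks were closed, of which 16371 were among the 17398.

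**Figure D2:**
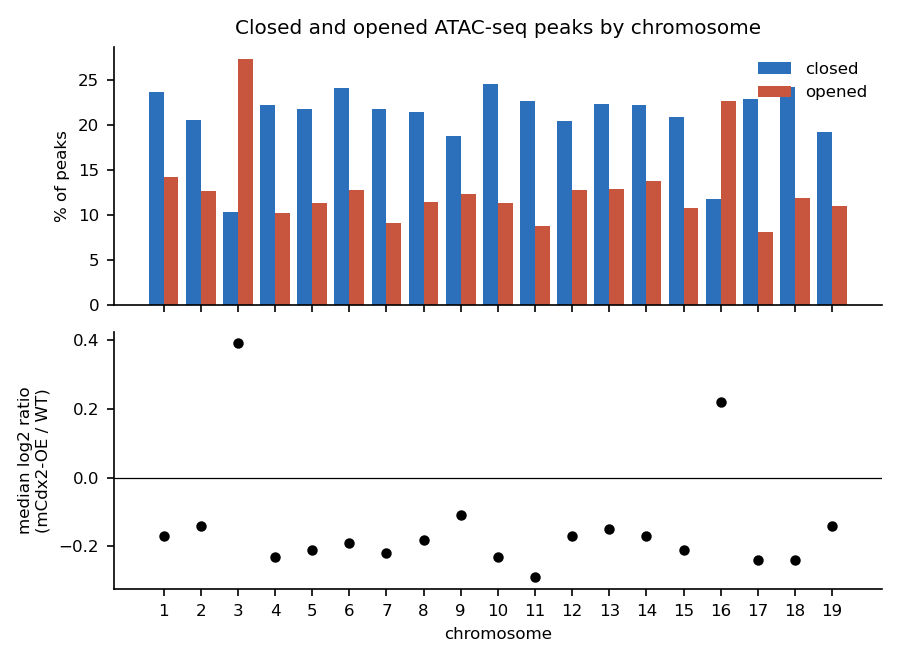
Upper panel, closed and opened ATAC-seq peaks of each of chromosomes 1 to 19 as percent of peaks with a scaled total of at least 40, and lower panel, median log2 ratio of mCdx2-OE to WT reads over those peaks. Chromosomes 3 and 16 had the lowest closed shares, 10.3% and 11.8%.

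Closed peaks lay mostly away from promoters. Only 706 of them (4.06%, 95% Wilson interval 3.77 to 4.36) were within 1 kb of a transcription start, against 11.4% of opened and 22.2% of other peaks. In introns lay 48.0% of closed peaks, between genes 41.3% and in exons 6.62%. Their median distance to the nearest start was 18372 bp, against 20717 bp for opened and 10151.5 bp for other peaks, and 23.7% of them were over 50 kb away. Promoters were 4.44% of closed peaks at a 2- to 4-fold loss, 2.91% at 4- to 8-fold and 2.32% (1.43 to 3.73) beyond 8-fold. Closed peaks were also shorter (median 658 bp, against 741 bp opened and 851 bp other) and their windows more often over 50% soft-masked repeats (14.3%, against 7.43% and 7.81%). The median GC content of their windows was 49.3%, between 46.3% for opened and 52.3% for other peaks.

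Motifs of factors that hold the naive state open were more frequent in closed windows than in the rest. The octamer ATGCAAAT, the letters bound by Oct4, was in 4.57% of closed windows (4.27 to 4.89), against 1.85% of opened, 1.94% of other and 2.48% of all windows. The Esrrb motif TCAAGGTCA was in 2.38% (2.16 to 2.62), against 0.553%, 0.893% and 1.16% in the same order. The Sox motif CATTGTT was in 6.45% (6.10 to 6.83), against 5.64%, 3.89% and 4.65%. The Klf motif GGGNGTGG was in 19.2% (18.6 to 19.8), against 11.6%, 16.6% and 16.5%. At least 1 of these 4 motifs was in 29.9% of closed, 18.8% of opened and 22.2% of other windows.

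The octamer share grew with the loss of reads, from 3.91% of windows at 2- to 4-fold to 6.44% at 4- to 8-fold and 7.97% beyond 8-fold. The bins were cut on the same reads that chose the peaks, so these shares are a description with no test. Their intervals cover counting error only and not the unknown spread between libraries. Those of the first and the last bin, 3.59 to 4.25 and 6.18 to 10.2, did not overlap. The interval of the middle bin, 5.67 to 7.31, overlapped that of the last. Klf motifs showed no such change, with 19.1%, 19.5% and 19.3% in the 3 bins, and Esrrb motifs were in 2.28%, 2.77% and 2.32%. Sox motifs were in 5.94%, 8.48% and 6.38%, highest in the middle bin. The window near Klf5 printed above, with octamer and Sox letters and a ratio of -2.62, belongs to the middle bin. An octamer and a Sox motif in the same window were rare, 0.299% of closed against 0.169% of opened and 0.114% of other windows.

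For the other 5 motifs the closed windows were not the highest class. The Cdx motif CNATAAA was in 8.38% of closed windows (7.98 to 8.80), less than the 9.91% of other and far less than the 35.5% of opened windows. CNAGNGGGC, the motif of the insulator protein Ctcf, was in 3.97% of closed against 4.10% of opened and 7.55% of other windows. The AP-1 motif TGANTCA was in 9.83% of closed, 10.1% of opened and 8.45% of other windows. For the Tead motif GGAATGT these shares were 5.79%, 8.83% and 5.35%, and for the Gata motif AGATAAG they were 3.15%, 4.25% and 2.79%. Over all windows the shares of these 5 motifs were 12.9%, 6.36%, 8.94%, 5.89% and 3.05%.

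Few closed peaks overlapped a Cdx2 peak. Of 17398 closed peaks, 515 (2.96%, 2.72 to 3.22) overlapped any of the 91665 Cdx2 ChIP-seq peaks of mESCs, against 61.1% of opened, 9.10% of other and 14.5% of all peaks. With a Cdx2 peak required to cover at least 50% of the ATAC-seq peak, 0.569% of closed and 39.9% of opened peaks were left. In RMES cells Cdx2 peaks overlapped 1.09% of closed and 42.1% of opened peaks. Binding nearby was about as common as for other peaks, since a Cdx2 peak lay within 10 kb of 45.6% of closed and 48.5% of other peaks. By depth of loss, 3.47% overlapped at 2- to 4-fold, 1.31% at 4- to 8-fold and 1.30% (0.688 to 2.46) beyond 8-fold. With 50% cover these shares were 0.633%, 0.204% and 1.16%, and with RMES peaks 1.15%, 0.787% and 1.45%, so these counts did not fall steadily.

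The 515 closed peaks with a Cdx2 peak had smaller losses and more repeats than closed peaks as a whole. Their median ratio was -1.34, with medians of 87 WT and 41 mCdx2-OE reads, and 20.4% of their windows were over 50% soft-masked. A Cdx motif was in 20.4% of these windows, and 28.9% of them were also under a Cdx2 peak of RMES cells. Their Cdx2 peaks held a median of 69 ChIP-seq reads, against 187 at opened and 87 at other peaks. Of the 5 closed peaks with the most ChIP-seq reads, 3 had windows over 50% soft-masked. The peak at the predicted gene Gm10800, chr2:98666087-98667455, was 98.0% soft-masked in its window, had 1150 WT and 48 mCdx2-OE ATAC-seq reads and held 6504 (mCdx2) and 6635 (rCdx2) ChIP-seq reads. Its neighbour at Gm10801, chr2:98662098-98663047, had 984 and 349 ATAC-seq reads and held 3871 and 4169 ChIP-seq reads.

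**Figure D3:**
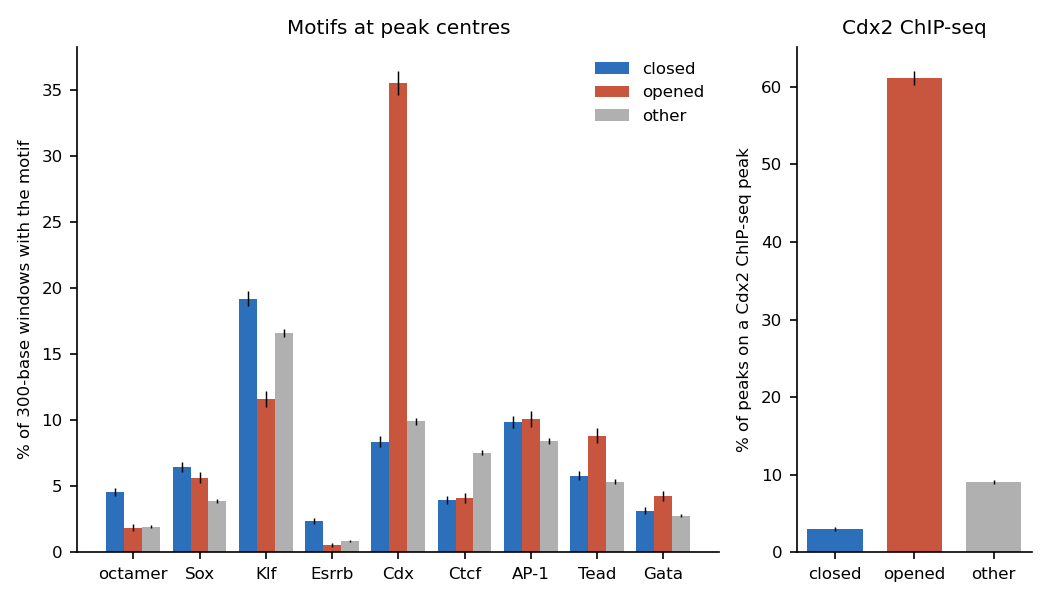
Share (percent) of closed, opened and other ATAC-seq peaks whose central 300-base window held each motif, and share that overlapped a Cdx2 ChIP-seq peak of mESCs, with lines for 95% Wilson intervals. Octamer and Esrrb motifs were most frequent in closed windows (4.57% and 2.38%), and Cdx motifs and Cdx2 peaks in opened ones (35.5% and 61.1%).

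The closed peaks with the most reads included several that mapped to repeated sequence. The highest, chr11:3152136-3180291 in Sfi1, was 28156 bp long and had 6180 WT and 4062 mCdx2-OE reads. The next, chr1:24612568-24613315 near Col19a1, had 1409 WT reads and no mCdx2-OE read, and 92.5% of the 31-base words of the whole peak also occur in the mitochondrial genome. Mitochondrial reads were removed by the authors, and whether this treated both libraries alike was not tested. Of the 10 closed peaks with the most WT reads, 7 overlapped a Cdx2 peak. Among those at genes was an intronic peak of Esrrb, chr12:86501151-86505549, with 689 and 418 reads and a ratio of -1.16 (counting interval -1.34 to -0.98). An intronic peak of Cdk8, a kinase of the Mediator complex, had 621 and 401 reads and a ratio of -1.07.

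Closed peaks were joined into runs, and runs of opened, other or all peaks were not counted. Whether closed peaks lie closer together than those was therefore not tested. With gaps of at most 10 kb the closed peaks formed 13137 runs, of which 10385 were single peaks. In the same run, 40.3% of closed peaks had another closed peak. Runs of at least 3 numbered 865 and held 3239 peaks (18.6%), and 161 runs had at least 5. The run with the most peaks lay over the keratin genes Krt17 and Krt42, chr11:100253933-100293541, where 13 of 14 peaks in 39.6 kb were closed and their reads summed to 871 in WT and 276 in mCdx2-OE (ratio -2.10). Over Hjurp, Mroh2a and Trpm8, chr1:88232828-88290569, 12 of 18 peaks were closed (579 and 315 reads). All 9 peaks of chr5:116380601-116413361, near Hspb8, were closed (1070 and 434 reads, ratio -1.74), as were 9 of 10 near Jakmip1, chr5:37015630-37051179 (830 and 344 reads). None of these runs, nor that over 2310016G11Rik on chromosome 7 (9 of 12 peaks), held a Cdx2 peak or an opened peak.

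RNA from these long runs did not move in 1 direction. Values are CPM, counts scaled to a common library size with TMM factors, and calls are from edgeR's quasi-likelihood test, Benjamini-Hochberg adjusted, with a fold over 2. Krt17, an epithelial keratin, had 2.21 and 1.74 CPM in the WT libraries and 0.376 and 0.325 in mCdx2-OE, and fell (log2 fold change -2.45, SE 0.46, adjusted p = 0.00017). Krt42 fell from 8.52 and 8.36 CPM to 4.35 and 3.25 (-1.13, SE 0.13, adjusted p = 7.5e-07). Hspb8, a small heat shock protein at the run with no peak left unclosed, rose from 52.2 and 52.5 to 142 and 154 CPM (1.5, SE 0.11, adjusted p = 6.9e-09). Jakmip1, a microtubule-associated protein of neurons, went from 29.1 and 30.9 to 17.3 and 16.8 CPM (-0.81), below a fold of 2. In all 4 genes the WT and mCdx2-OE libraries did not overlap. Related keratin genes can share reads, and whether the counts separate them was not tested.

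Each closed peak was then related to the RNA of the gene with the nearest transcription start. Closed peaks had 9756 nearest genes, 5942 of them with a single closed peak. The mESC RNA counts of replicate 1 covered 19919 genes and those of replicate 2 covered 34923. Only the 19919 genes counted in both were used, so some nearest genes were missing for that reason. Of the nearest genes, 5556 were counted in both replicates and passed the filter on low counts. These account for 10414 closed peaks (59.9%), and the other closed peaks have no RNA value here. The RNA libraries held 12698443 to 94686029 counts in mESCs. The WT libraries were the deepest, at 74960057 and 94686029, and the mCdx2-OE libraries held 22326557 and 14656243. In bulk RNA, fewer cells of a type and less RNA per cell cannot be told apart.

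Genes near closed peaks were lower somewhat more often than genes at large. Of all 16000 genes tested, 15.0% were lower and 18.4% higher in mCdx2-OE than in WT, with a median log2 fold change of -0.03. Of the 5556 genes with a closed peak, 1014 (18.3%) were lower and 836 (15.0%) higher (median -0.12). Among the 10444 genes without one, 13.2% were lower and 20.2% higher. With nearest starts taken among tested genes only, 1219 of 7397 such genes were lower (16.5%) and 1319 higher (17.8%), close to all genes. The excess was clearer where no opened peak shared the gene. Of 3802 genes with closed peaks only, 815 fell (21.4%, 20.2 to 22.8) and 474 rose (12.5%, 11.5 to 13.6), with a median of -0.23, and with nearest starts among tested genes the shares of 4109 such genes were 20.7% and 13%. In contrast, of 2269 genes with opened peaks only, 7.27% fell and 30.8% rose (median 0.37). Genes with both kinds stood between, at 11.3% lower and 20.6% higher of 1754, and genes with neither were at 14.9% and 17.3% of 8175.

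The share of lower genes varied more with distance than with the number of closed peaks or the depth of loss. Where the nearest closed peak was within 1 kb of the start, 139 of 359 genes were lower (38.7%, 33.8 to 43.9) and 38 higher (10.6%), with a median of -0.71. At 1 to 10 kb, 20.3% of 2630 genes were lower and 10.8% higher. At 10 to 50 kb the shares were 13.9% and 18.3% of 2095, near those of all genes, and beyond 50 kb they were 10.8% and 27.5% of 472. By number of closed peaks, 17.1% were lower with 1, 19% with 2, 23% with 3 or 4 and 15.6% with 5 to 9, and of 26 genes with at least 10, 4 were lower and none was higher. By the strongest loss at the gene, 17.4% were lower at 2- to 4-fold, 20.2% at 4- to 8-fold and 19.2% beyond 8-fold.

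The share of a gene's peaks that closed showed the same order. Among genes with at least 4 peaks, 10.6% were lower where none closed, 11.8% where under 25% closed, 18.2% where 25 to 50% closed and 21.8% where 50% or more closed, while 24.1%, 18.2%, 14.8% and 13.1% were higher.

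Closed peaks lay near genes of both directions. Of the 10414 closed peaks with a tested nearest gene, 18.6% had a gene that fell and 14.1% a gene that rose. For opened peaks these shares were 7.64% and 29.6%, and for other peaks 14.3% and 16.8%. Genes whose closed peak overlapped a Cdx2 peak did not stand out, with 49 of 278 lower (17.6%) and 32 higher (11.5%). Without chromosomes 3 and 16, 968 of 5240 genes with a closed peak were lower (18.5%) and 772 higher (14.7%), beside 15.3% and 17.9% of all 14775 genes without these chromosomes.

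**Figure D4:**
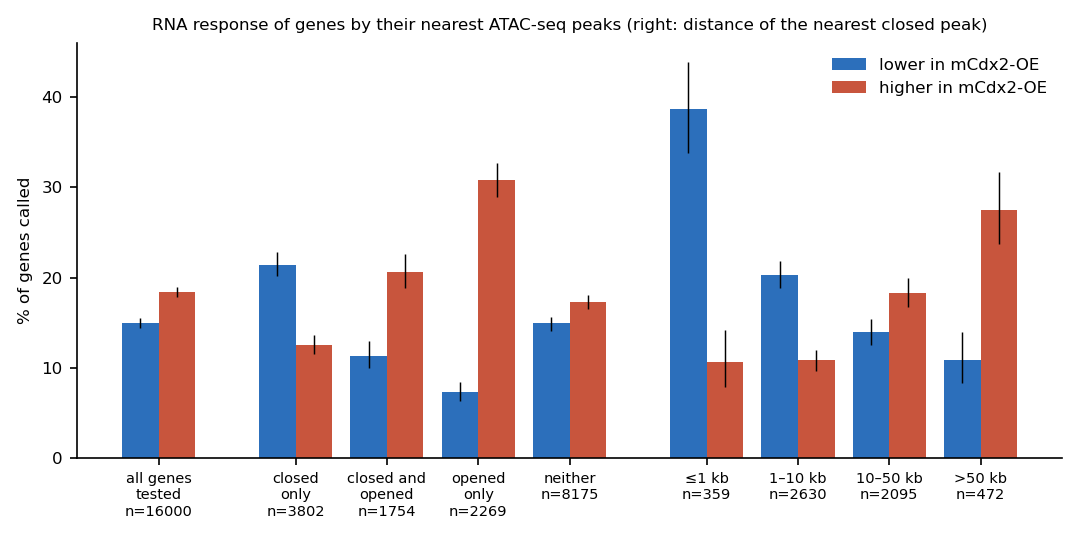
Share (percent) of genes lower and higher than WT (edgeR, adjusted p under 0.05 and fold over 2) by class of ATAC-seq peak nearest to the gene and by distance of the nearest closed peak, in mCdx2-OE mESCs, with lines for 95% Wilson intervals and the number of genes under each pair of bars. Genes with a closed peak within 1 kb had the highest share lower, 38.7% against 15.0% of all genes.

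The induced libraries carried other changes of cell type markers beside these results. Over all 16000 genes tested, 15.0% were lower and 18.4% higher in mCdx2-OE. Trophoblast markers summed to 197 to 198 CPM in WT and 763 to 772 in mCdx2-OE, with 7 of 10 tested higher, Cdx2 among the 10, and primitive endoderm markers to 5.92 to 6.37 and 25.8 to 29.7 CPM, with 5 of 7 higher. Embryonic stem cell markers went from 4310 to 4350 down to 3500 to 3540 CPM, with 2 of 9 lower. At adjusted p alone in edgeR's test, 5 of the 9 were lower and 4 higher, beside 5722 and 5436 of all 16000 genes. Posterior mesoderm markers went from 62.6 to 64.8 down to 32.9 to 34.7 CPM, with 3 of 7 lower and 1 higher, and none of 3 neural markers was called. Fibroblast feeder markers, 3 of 5 lower and 0 higher, summed to 1530 CPM in WT and 1630 to 1800 in mCdx2-OE. With no fold threshold, 3 of these 5 were lower and 1 higher. Cdx2 itself was at 1.21 to 1.36 CPM in the WT mESC libraries and 37.2 to 147 in the 18 induced ones. The part of these marker changes in the shares of lower genes was not tested.

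Closed peaks were next assigned to genes of the pluripotency network. Of 44 listed genes, 41 lay on chromosomes 1 to 19, 31 of these were nearest to at least 1 closed peak, and 111 of their 389 peaks were closed (28.5%, beside 20.9% of all peaks, a share that the rule itself set). Other lists had shares on both sides of this, among them 25.6% of the peaks of trophoblast, 38.7% of primitive endoderm and 47.1% of fibroblast feeder markers (8 of 17 peaks), and 18.8% of posterior mesoderm markers. Of the 3 pluripotency lists, the naive genes had the highest share, with closed peaks at 23 of 24 genes and 92 closed peaks (33.0%). Core genes had them at 5 of 9 (12 closed, 19%) and formative genes at 3 of 8 (7 closed, 14.9%). Their RNA fell in a different order. In mCdx2-OE, 6 of 10 core, 5 of 25 naive and 5 of 8 formative genes tested were lower, and 1 naive gene, Tet2, was higher, beside 15.0% lower and 18.4% higher of all genes. Of the 31 genes with a closed peak, 7 were lower and 1 higher, and at adjusted p alone, with no fold threshold, 20 were lower and 10 higher, beside 5722 lower and 5436 higher of all 16000 genes.

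Several of the largest falls in these lists were at genes with few closed peaks or none. Pou5f1, which encodes Oct4, had no closed peak and fell with a log2 fold change of -1.47. Lin28a (-2.30), an RNA-binding protein that blocks let-7 maturation, L1td1 (-1.75), the DNA methyltransferases Dnmt3a (-1.80) and Dnmt3b (-2.11) and the ETS factor Etv4 (-2.58) had none either. Lin28a was the nearest gene of no peak that reached the read minimum, so it could not have had a closed peak. Utf1 (-3.20), Tdgf1 (-1.22) and Gbx2 (-2.32) fell with 1 or 2.

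The 16 listed genes with at least 3 closed peaks had 87 of them, with 25 to 689 WT reads (median 58), 8 to 418 mCdx2-OE reads (median 24) and a median ratio of -1.36. Only 2 were promoter peaks and 38 lay inside their own gene. A Cdx2 peak overlapped 3 of them, at Esrrb, Jam2 and Lefty1. In their windows, 12 had a Klf, 9 a Cdx, 4 an Esrrb, 2 a Sox and 1 an octamer motif.

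Among the transcription factors of these 16 genes, Esrrb, an orphan nuclear receptor, had the most closed peaks, 12 of its 34. Its RNA was at 644 and 629 CPM in WT and 462 and 494 in mCdx2-OE (log2 fold change -0.41, SE 0.10). The groups did not overlap and edgeR's adjusted p was 0.00125, but the fold was under 2. Klf2 had 8 closed peaks of 17 and fell from 299 and 297 to 134 and 132 CPM (-1.16, SE 0.09, adjusted p = 6.1e-09). Nr5a2, an orphan nuclear receptor that can act in place of Oct4 in reprogramming, had 5 closed peaks and fell from 109 and 109 to 54.7 and 53.4 CPM (-1.01, SE 0.12). Klf5, with 7 closed peaks that included the octamer window printed above, was at 157 and 161 CPM in WT and 131 and 142 in mCdx2-OE (-0.22, SE 0.08, adjusted p = 0.0152).

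Other factors of the lists went both ways. Nanog, the homeodomain factor of the core network, had 3 closed peaks, among them the promoter peak 227 bp upstream of its start that went from 174 to 109 reads (-1.10). Its RNA was higher, at 927 and 798 CPM in mCdx2-OE against 539 and 541 in WT (0.68, SE 0.08, adjusted p = 1.5e-06, under a fold of 2). Tfcp2l1, a grainyhead-like factor of the naive state, had 6 closed and 6 opened peaks and went from 439 and 458 to 768 and 728 CPM (0.74, SE 0.07). Sall4, a zinc finger factor, had 4 closed and 4 opened peaks and 351 and 353 CPM in WT against 221 and 235 in mCdx2-OE (-0.63, SE 0.11). In all 3 the WT and mCdx2-OE libraries did not overlap.

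Both LIF pathway genes among the 16 were lower. Lifr, the LIF receptor, had 6 closed peaks, the highest with 374 WT and 175 mCdx2-OE reads, and its RNA was at 61.8 and 64.2 CPM in WT and 34.0 and 31.2 in mCdx2-OE (-0.95, SE 0.07, adjusted p = 5.9e-09). Socs3 had 7 closed peaks of 13 and 94.6 and 90.4 CPM in WT against 53.5 and 54.3 (-0.78, SE 0.07, adjusted p = 8.2e-08). For Lifr and Socs3, both mCdx2-OE libraries were below both WT libraries, at a fold under 2. Stat3, a listed gene of this pathway with 1 closed peak, was higher. It had 110 and 108 CPM in WT and 148 and 144 in mCdx2-OE (0.42, SE 0.06, adjusted p = 1.3e-05 in edgeR's test).

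Of the secreted ligands and inhibitors, Fgf4, which drives cells out of the naive state, had 6 of its 7 peaks closed but little change in RNA, with 215 and 224 CPM in WT and 185 and 187 in mCdx2-OE (-0.24, SE 0.06, adjusted p = 0.00231). Nodal, a ligand of the transforming growth factor beta family, had 4 of 7 closed and 65.7 and 65.2 CPM against 60.4 and 50.4 (-0.24, SE 0.11, adjusted p = 0.0751). Lefty1, a Nodal inhibitor, had 3 of 5 closed and 31.2 and 30.3 CPM against 14.8 and 17.4 (-0.94, SE 0.11). Etv5, a target of FGF signalling, had 3 of 18 closed and fell from 548 and 559 to 256 and 284 CPM (-1.04, SE 0.10, adjusted p = 1.7e-07). Etv5 lies on chromosome 16.

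The remaining listed genes mark naive cells. Dppa5a, an RNA-binding protein of pluripotent cells, had all 3 of its peaks closed, including a promoter peak that went from 386 to 122 reads (-2.09), and fell from 1240 and 1330 to 601 and 457 CPM (-1.28, SE 0.14, adjusted p = 4e-07). Jam2, on chromosome 16, had 6 of 11 closed and went up from 186 and 190 to 303 and 369 CPM (0.84, SE 0.10, adjusted p = 1.1e-06). Fbxo15, an F-box protein and Oct4 target, had 4 of 9 closed and 162 and 160 CPM against 227 and 220 (0.47, SE 0.08). Neither reached a fold of 2.

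**Figure D5:**
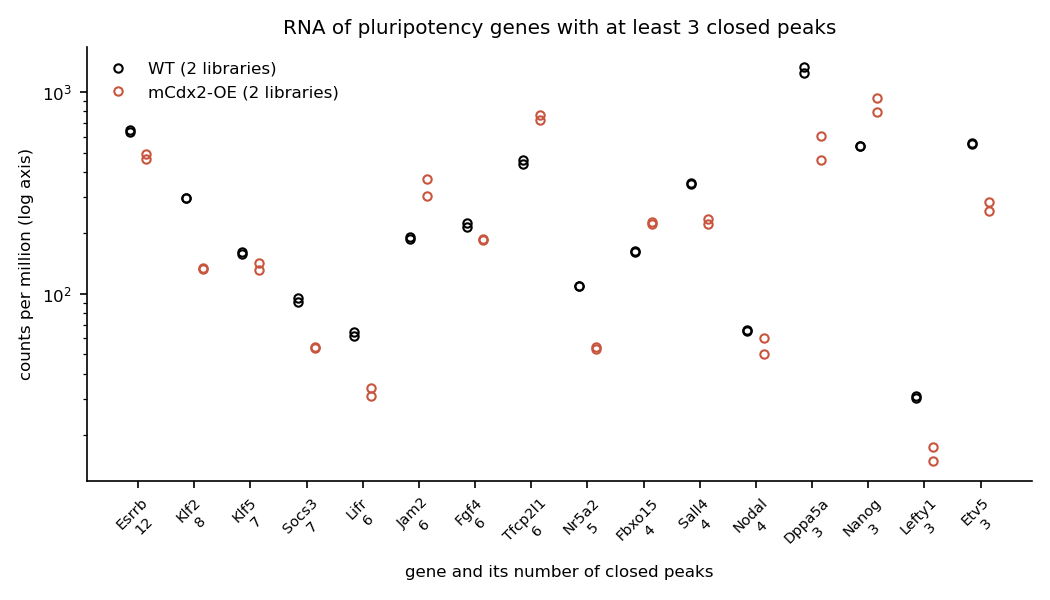
RNA (TMM-normalised CPM, log axis) in each of 2 WT and 2 mCdx2-OE libraries for the 16 listed pluripotency genes with at least 3 closed peaks, with the number of closed peaks under each name. Klf2 and Dppa5a stand lower in both mCdx2-OE libraries, at 134 and 132 and at 601 and 457 CPM, while Nanog, Tfcp2l1, Jam2 and Fbxo15 stand higher.

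The tested genes with the most closed peaks were not mainly pluripotency genes, and their RNA went several ways. The noncoding gene 1700097N02Rik had 19 closed peaks and fell from 67.9 and 56.3 CPM to 4.60 and 3.12 (-3.97, SE 0.21, adjusted p = 1.1e-10). Gm13362, a predicted gene with 15, went from 101 and 84 counts in WT to 0 in both mCdx2-OE libraries, at least 13.4-fold lower with a floor of 3 counts over both. Sstr2, a somatostatin receptor with 16 closed peaks, was barely expressed at 0.312 and 0.445 CPM in WT and 0.585 and 0.781 in mCdx2-OE (0.80, adjusted p = 0.193). Glp1r, the glucagon-like peptide 1 receptor with 14, was likewise near 1 CPM, at 0.964 and 1.06 against 1.88 and 1.30 (0.68, adjusted p = 0.0851).

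Of the other 6 of these 10 genes, 5 were lower at adjusted p under 0.05 in edgeR's test but not by 2-fold. At that adjusted p and any fold, 5722 of all 16000 genes were lower. Gli2, a transcription factor of Hedgehog signalling with 13 closed peaks, had 105 and 100 CPM in WT and 58.3 and 61.3 in mCdx2-OE (-0.78). Mtcl1, a microtubule crosslinking protein with 14, had 161 and 159 CPM against 83.1 and 78.0 (-0.99), and Tenm4, a teneurin of the cell surface with 15, had 81.6 and 78.6 against 51.7 and 50.1 (-0.65). Tns3, a tensin of focal adhesions, and Msi2, an RNA-binding protein of stem cells, each had 12 closed peaks and log2 fold changes of -0.55 and -0.38. Grik3, a kainate receptor subunit with 13 closed peaks, had 42.5 and 47.1 CPM in WT and 48.9 and 40.8 in mCdx2-OE (0.01, SE 0.10, adjusted p = 0.95), so its groups overlapped.

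Some genes with at least 3 closed peaks lost nearly all RNA. Spry4, a Sprouty inhibitor of receptor tyrosine kinase signalling with 5 closed peaks, fell from 25 and 27.2 CPM to 0.544 and 0.650 (-5.46, SE 0.30, adjusted p = 1.6e-10). Ntn1, which encodes the secreted guidance protein netrin 1, had 5 closed peaks, none opened, the nearest 0.288 kb from its start, and fell from 214 and 214 CPM to 9.83 and 7.87 (-4.58, SE 0.12, adjusted p = 5.8e-14). Crmp1, a collapsin response mediator protein with 3, fell from 25.5 and 24.1 to 1.13 and 1.43 CPM (-4.30, SE 0.17). Of the noncoding or predicted genes, Gm17232 went from 18.9 and 13.6 CPM to 0.209 and 0.065, the latter from 5 and 1 counts. For 1700018A23Rik the values were 7.57 and 6.75 CPM in WT and 0.125 and 0 in mCdx2-OE, the latter from 3 and 0 counts.

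Other genes rose while 3 or more peaks around them closed. Lipg, endothelial lipase, had 4 closed and no opened peak and rose from 0.184 and 0.377 CPM to 9.28 and 7.61 (4.86, SE 0.23, adjusted p = 3.1e-11). Klhdc7a, a kelch domain protein, had 7 closed and no opened peak and rose from 1.63 and 1.96 to 20.2 and 17.9 CPM (3.40, SE 0.21). Fbln5, an elastic fibre protein, rose from 0.907 and 0.936 to 12.2 and 10.5 CPM (3.62, SE 0.17), with 4 closed and none opened. Dhrs3, which reduces retinaldehyde, rose from 1.06 and 1.28 to 13 and 11.7 CPM (3.39, SE 0.25), and Rfx4, a winged-helix factor, from 0.879 and 0.514 to 5.56 and 6.11 CPM (3.07, SE 0.21). In each of these 5 genes both induced libraries were above both WT libraries.

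The rat protein and its mutants were compared with the same WT libraries, so their values stand side by side with those of mCdx2-OE and are not independent of them. In rCdx2-OE, 15.4% of all genes tested were lower and 19% higher. Of the 5556 genes with a closed peak, 1028 (18.5%) were lower and 855 (15.4%) higher, and of the 3802 with closed peaks only, 822 (21.6%) and 496 (13%). Within 1 kb, 145 of 359 genes were lower (40.4%, 35.4 to 45.5) and 37 higher, with a median of -0.80.

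In all 7 mutants the genes with closed peaks only were lower more often than all genes tested. The shares of all genes lower and higher in the mutants were 13.1% and 10.1% for R1, 12.8% and 10.6% for R2, 13.4% and 12.2% for R3, and 13.1% and 10.6% for R12. For R13 they were 14.2% and 13.6%, for R23 14.9% and 13.8%, and for R123 14.9% and 14%. Among genes with closed peaks only, the share lower was 16.3% in R1 and R2, 15.8% in R3, 15.9% in R12, 16.7% in R13, 17.7% in R23 and 17.9% in R123. Counting every gene with a closed peak, opened peaks or not, the share lower was 13.7% (R12) to 15.6% (R123), near that of all genes in each mutant. The share higher among genes with closed peaks only was 7.73% in R1, 8.50% in R2, 8.63% in R12, 11.2% in R3, 12.7% in R13, 12.4% in R23 and 12.8% in R123. Within 1 kb of a closed peak, 25.1% (R3) to 29.8% (R1) of genes were lower and 11.1% (R1) to 17.5% (R13) higher in the mutants. Where a gene had at least 3 closed peaks, 20.7% of 1102 genes were lower in mCdx2-OE and 20.9% in rCdx2-OE, but 12.1% (R1) to 14.1% (R123) in the mutants, near their shares of all genes. The differences between mutants and rCdx2-OE were not tested.

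Single genes followed the intact proteins to different degrees. All 7 mutants were called lower for Spry4, Ntn1, Crmp1, Gm13362, Gm17232 and 1700018A23Rik, and all 7 higher for Lipg, Fbln5, Klhdc7a, Dhrs3 and Rfx4. Klf2 had log2 fold changes of -1.32 to -0.92 in the 7 mutants, and 4 were called lower. For Nr5a2 the mutants lay between -0.31 and -0.12, against -1.01 in mCdx2-OE and -1.15 in rCdx2-OE. Lifr ranged from -0.07 to 0.19 in the mutants and was called lower in rCdx2-OE (-1.06), and Socs3 ranged from -0.17 to -0.03 against -0.93. The value of Klf5 was above 0 in every mutant (0.57 to 0.73) and below 0 with the intact proteins (-0.22 and -0.40), as for Esrrb (0.19 to 0.35, against -0.41 and -0.58). Jam2 was called higher in all 7 mutants (1.32 to 1.59) and Tfcp2l1 in 6 (0.97 to 1.23). These differences were not tested.

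On the mouse genome of RMES cells, which share no library with the mESC comparison, 2 WT libraries were set against 1 mCdx2-OE and 1 rCdx2-OE library in a joint group, with 36166038 to 41418817 counts each. Of all 16887 genes tested, 16.1% were lower and 28.3% higher. Of the 5681 genes with a closed peak of mESCs, 1099 (19.3%) were lower and 1386 (24.4%) higher. The share lower went from 17.1% with 1 closed peak to 20.1% with 2, 25.9% with 3 or 4, 24.0% with 5 to 9 and 26.9% with at least 10. Within 1 kb, 103 of 340 genes were lower (30.3%) and 119 higher (35.0%), so the promoter group had more calls in both directions. Genes with opened peaks only were 12.6% lower and 32.4% higher. Chromosome 16 stood apart with 42.9% of 490 genes lower and a median of -0.78, against 0.16 on chromosome 3 and 0.09 on the other autosomes. Without chromosomes 3 and 16, 989 of 5356 genes with a closed peak were lower (18.5%) and 1325 higher (24.7%), beside 15.3% and 28.7% of all genes without these chromosomes.

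In RMES cells 26 of 42 listed pluripotency genes were lower and 1, Dppa3, was higher, beside 16 and 1 of 43 in mESCs. Of 30 with a closed peak, 18 were lower in RMES cells. Tfcp2l1 fell from 1860 in both WT libraries to 643 and 655 CPM (-1.52, edgeR's adjusted p = 3.2e-11). Klf5 fell from 722 and 704 CPM with a log2 fold change of -2.48, Nr5a2 from 248 and 250 to 57.5 and 63.8 (-2.04) and Sall4 from 556 and 560 to 224 and 221 (-1.33). Klf2 (-1.15), Dppa5a (-1.72), Lefty1 (-2.21) and Fbxo15 (-1.79) fell too, as did Jam2 (-2.58) and Etv5 (-1.32) on chromosome 16. Esrrb was at 789 and 773 CPM in WT and 455 and 459 in the induced libraries (-0.77), lower but not by 2-fold, as were Nanog (-0.40), Socs3 (-0.96), Lifr (-0.68) and Fgf4 (-0.26). Whether RMES cells and mESCs differed in these genes was not tested.

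Genes named for their closed peaks behaved alike in both cell types in part. Spry4 fell from 158 and 166 to 4.72 and 2.89 CPM in RMES cells (-5.41), Ntn1 from 326 and 330 to 20.6 and 17.4 (-4.11) and 1700097N02Rik from 3.82 and 4.49 to 0.286 and 0.239 (-3.97). Lipg (2.06) and Dhrs3 (2.63) rose. Crmp1 was at 1.79 and 2.29 CPM in WT and 3.15 and 2.63 in the induced libraries (0.50, adjusted p = 0.0544 in edgeR's test), Fbln5 had a log2 fold change of -0.20 (adjusted p = 0.465), and Rfx4 did not pass the filter on low counts. Krt17, at the run with the most closed peaks, rose in RMES cells (3.26, adjusted p = 1.5e-05), while it fell in mESCs.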

How the data were processed

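RNA-seq, ATAC-seq and ChIP-seq values were the read counts per gene or peak that the authors deposited. The authors aligned RNA reads to mm10 with STAR 2.7.0d and counted them with featureCounts over Ensembl genes without pseudogenes. ATAC-seq reads were aligned with Bowtie2 2.3.4.3, duplicates, mitochondrial and poorly mapped reads were removed, and peaks were called with MACS2 on merged libraries. ChIP-seq peaks were likewise called on merged reads and filtered on the q-value. Peaks, windows (300 bases) and nearest annotated starts were joined with bedtools 2.31.1, pysam 0.24.0 and pandas 2.3.3. A Cdx2 peak counted as shared at any overlap. All 20 mESC RNA libraries entered 1 edgeR 4.0.16 quasi-likelihood model in R 4.3.3 (filterByExpr, TMM, condition only), and 4 RMES libraries another. P-values were Benjamini-Hochberg adjusted over all genes tested, and a call needed an adjusted p under 0.05 and a fold over 2. The scripts were tested on simulated data.

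The members, lists and tests were chosen with earlier results of these data known. Named genes were listed pluripotency genes with at least 3 closed peaks, the 10 tested genes with the most closed peaks, and the 5 largest falls and 5 largest rises among called genes with at least 3 closed peaks, a mean of at least 50 counts and 1 direction in both replicates. The Krt17, Hspb8 and Jakmip1 loci, the Pou5f1 group and the 5 windows with octamer or Esrrb motifs were chosen after their values were seen. In the RMES ChIP-seq tables, both proteins' peaks were used together. Motif windows, promoters and distances used GRCm38/mm10 with GENCODE starts.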

Additional observations from a re-analysis of the deposited data

Results flagged for a closer look

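Of 35 named genes with values in both cell types, 8 moved in opposite directions in every mESC and every RMES library pair, and the difference between the cell types was not tested. The log2 fold changes in mESCs and RMES cells were 0.68 and -0.40 for Nanog, 0.74 and -1.52 for Tfcp2l1, 0.84 and -2.58 for Jam2, and 0.47 and -1.79 for Fbxo15. They were -0.24 and 0.09 for Nodal, whose values did not pass the adjusted p in either cell type. Gli2 (-0.78 and 1.01), Msi2 (-0.38 and 0.85) and Crmp1 (-4.30 and 0.50) had values below 0 in mESCs and above 0 in RMES cells, and in RMES cells Crmp1 missed the adjusted p. Jam2 lies on chromosome 16, where 42.9% of genes were lower in RMES cells.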

How the results depend on the processing

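The number of closed peaks, 17398, was 8823 with unscaled reads, 5666 with a scaled total of at least 100 and 4122 with a fold over 4. The share with a Cdx2 peak, 2.96%, was 2.12% with unscaled reads, 5.72% with a total of at least 100, 1.31% with a fold over 4, 0.569% with 50% cover, 1.09% with RMES peaks and 1.01% with Cdx2 peaks of at least the median reads. Genes with a closed peak that were lower and higher in mCdx2-OE, 1014 and 836, numbered 2257 and 1676 with no fold threshold, 527 and 355 with ATAC-seq totals of at least 100, 349 and 274 with an ATAC-seq fold over 4, and 643 and 514 with unscaled ATAC-seq reads. With the nearest start taken among tested genes only, 1219 were lower and 1319 higher, of more genes (7397 in place of 5556). For genes with closed peaks only (815 and 474), the same 4 settings gave 1713 and 962, 484 and 281, 322 and 216, and 417 and 187. With no fold threshold the medians over rCdx2-OE and the mutants, 789.5 and 739, were 1950 and 1744.5, and the RMES counts, 1099 and 1386, were 2500 and 2195. These settings change the thresholds or the peaks by construction.

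Leaving out 1 library at a time left 1 library in a group, so counts of calls from these fits are not given. Leaving out replicate 1 or replicate 2 of all conditions left no spread to test, so those fits gave log2 fold changes only. Grik3, at 0.01, was -0.01 with all genes that had a count, -0.07 without WT replicate 1, -0.14 without induced replicate 1 and -0.21 without replicate 1 of all conditions, and 0.21 without replicate 2. The other 95 values of the main comparisons changed by less than 1.5-fold. Of 644 single-gene values, 627 kept direction and, where the fit gave a p-value, call. Fits without replicate 1 or replicate 2 of all conditions gave none, so only direction was compared there. Replicate numbers were not used as pairs in the main fit. Deviations of replicate 1 from the mean of its condition correlated by -0.14 to 0.453 (median -0.003) over 45 pairs of conditions. Some conditions thus shared a difference between replicates. Cdx2 itself was higher in replicate 1 of each mutant, as in R1 (145 and 68.8 CPM), but lower in replicate 1 of mCdx2-OE (97.9 and 127). With the replicate block 1009 genes were lower and 836 higher. Settings without chromosomes 3 and 16, with chromosomes centred and without repeat-rich windows were added after the data were seen. With 1 ATAC-seq library per condition, the spread between libraries is unknown.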
